A study of Arabidopsis thaliana with 12 samples.

Results

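Petals of Arabidopsis thaliana were turned into callus, and the callus was compared with the petals it grew from on 4 of the 12 arrays of the series, those labelled as petal-derived callus. The other 8 arrays held callus of root and of cotyledon, 4 each. All plants were of the Landsberg erecta (Ler) ecotype. On each petal array, callus grown for 10 days on CIM, a callus-inducing medium rich in auxin, was set against freshly excised petals of day 0, and the 4 arrays came from biologically independent samples. Callus RNA was dyed with Cy5 in replicates 1 and 3 and with Cy3 in replicates 2 and 4. The deposited values are log2 ratios. Callus over petal explant is their likely direction, because the labels give callus as channel 1 and day 0 as the control, but the direction is not stated, and the opposite one would turn every sign below.

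Callus is a mass of dividing cells that forms from differentiated tissue when plant hormones such as auxin are supplied. A petal is a determinate organ. Its cells stop dividing early, then expand, and at the base they hold pale plastids that still carry photosynthetic proteins. Excised petals can also carry pollen that has fallen on them. An array ratio cannot tell fewer cells of a type from less RNA per cell.

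Of 10118 genes with at least 3 measured petal ratios, 3983 were higher in callus (39.4%) and 3098 were lower (30.6%), by limma with Benjamini-Hochberg adjustment at 0.05. A ratio of 1 or more on the log2 scale, a doubling, was reached by 2925 of the higher genes, and 2239 of the lower genes reached -1 or less. The sign was the same on every measured array for 6961 of the 7081 genes called. The median ratio over all genes tested was 0.12. Centring each array on the median of all its values, limits included, raised the ratios by 0.42 on average and gave 4464 higher and 2092 lower genes, so that the higher share of the calls went from 56.2% to 68.1%. All changes below are relative to the authors' own centring, which is not known.

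The arrays differed in how often a ratio stopped at the 100-fold limit of the deposited values. Such values, counted as missing, made up 24.1% of replicate 1, 28.2% of replicate 2, 2% of replicate 3 and 8.46% of replicate 4, and nearly all of them on replicates 1, 2 and 4 were at the lower limit. Over measured ratios the arrays correlated with r from 0.84 to 0.916 across 9451 genes, which are not independent replicates. With limits included r ran from 0.438 to 0.939 across probes. The dye term passed the limma threshold in 0 genes, against 821 at an unadjusted p under 0.05. The plot of all petal ratios shows the spread that the gene groups below are read against.

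**Figure D1:**
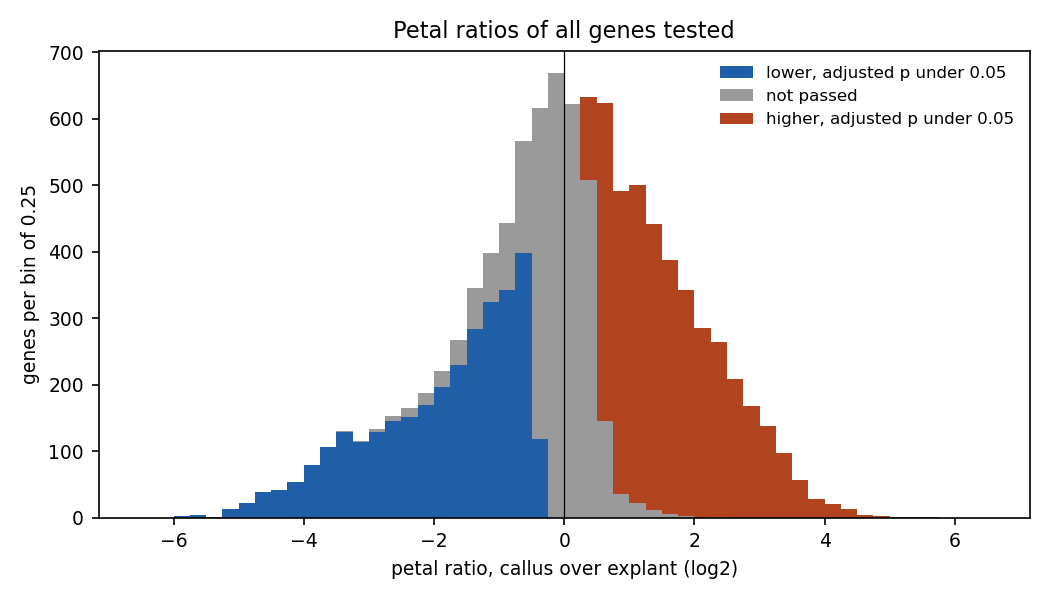
Histogram of the petal ratio (callus over explant, log2; bins of 0.25) for the 10118 genes tested, stacked by call. The 3983 higher genes (red) lie to the right of 0 and the 3098 lower genes (blue) to the left, with ratios from -5.95 to 5.51.

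The genes with a symbol, the same sign and a measured ratio on all 4 arrays were ranked by petal ratio, and the 8 highest and 8 lowest are given first. JAL22 (AT2G39310), a jacalin-related lectin, had ratios from 3.50 on replicate 4 to 5.36 on replicate 1, with 4.51 on replicate 2, a fitted ratio of 4.59 ± 0.81 (SD, n = 4), or 24.0-fold (limma adjusted p = 0.000785). EXO (AT4G08950), EXORDIUM, which promotes cell expansion downstream of brassinosteroid, gave 5.61, 4.44, 3.58 and 4.28 (4.48 ± 0.84). All 4 arrays of both genes lay far above 0, with replicate 1 the highest. XTH20 (AT5G48070), a xyloglucan endotransglucosylase that cuts and rejoins wall xyloglucan, reached 5.21, 4.06, 4.40 and 3.68 (4.34 ± 0.65). The SKU5-like gene sks15 (AT4G37160) stood at 4.36 ± 0.83, JAL31 (AT3G16430) at 4.06 ± 1.27 and BGLU22 (AT1G66280), a beta-glucosidase, at 4.01 ± 1.01.

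BUBR1 (AT2G33560), a kinase-like protein of the spindle checkpoint, had 4.72, 4.14, 4.47 and 4.11 (4.36 ± 0.29, 20.5-fold), the tightest of the 8 highest genes. Haspin (AT1G09450), the kinase that phosphorylates histone H3 at centromeres, had 5.04, 4.27, 3.92 and 4.00 (4.31 ± 0.51). Both mitotic genes were near these values on every array. The 8 highest genes passed at adjusted p between 0.000785 and 0.00384.

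At the low end, CYP71B31 (AT3G53300), a cytochrome P450, fell to -4.59, -5.76, -3.66 and -6.37 on replicates 1 to 4 (-5.10 ± 1.21, or 34.2-fold lower, limma adjusted p = 0.000785). AT59 (AT1G14420), a pectate lyase-like gene known from pollen, gave -5.26, -6.53, -2.71 and -5.88 (-5.09 ± 1.67). RALFL25 (AT3G25165), a peptide of the RALF family of secreted signals, gave -4.62, -6.42, -3.17 and -5.83 (-5.01 ± 1.44). On all 3 genes replicate 3 had the smallest change and the Cy3 arrays the largest. The serine carboxypeptidase-like gene scpl38 (AT2G05850) stood at -4.95 ± 1.27, SWEET4 (AT3G28007), a sugar exporter, at -4.78 ± 1.00 and GH9B11 (AT2G44560), an endoglucanase-family gene, at -4.72 ± 1.11. The cellulose synthase-like genes CSLA01 (AT4G16590) and CSLB03 (AT2G32530) each stood at -4.65, with SDs of 1.30 and 1.08.

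All 8 of these low genes, chosen among those measured on 4 arrays, were lower on both Cy3 arrays than on both Cy5 arrays, as the dot plot of the extreme genes shows. Among the lower genes measured on 4 arrays this held for 653 of 2890, and the opposite order for 808. The part of the dye in these values was not tested beyond the dye term of the fit.

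**Figure D2:**
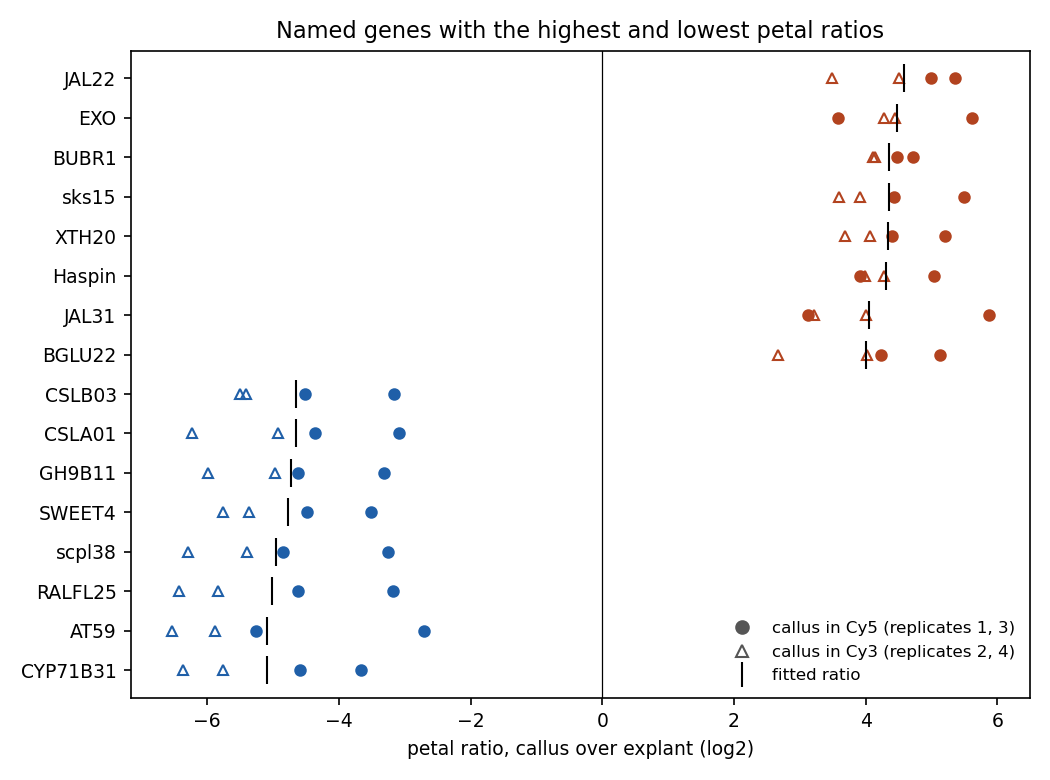
Petal ratio (log2, callus over explant) of the 8 highest and 8 lowest genes with a symbol, the same sign and a measured ratio on all 4 arrays, 1 point per array (filled circles, callus in Cy5; open triangles, callus in Cy3) and a bar at the fitted ratio. No point of a gene crosses 0, and among the 8 lowest genes the Cy3 arrays lie further from 0 than the Cy5 arrays.

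Of 59 cell cycle and replication genes listed, 6 could be tested, and 4 were higher and 0 lower, with a median ratio of 2.10, beside 39.4% higher and 30.6% lower over all genes. PRL (AT4G02060), the replication licensing factor also called PROLIFERA, had 3.71, 2.81, 3.54 and 2.63 (3.17 ± 0.53, limma adjusted p = 0.000785). TOPII (AT3G23890), topoisomerase II, had 3.41, 2.55, 2.36 and 2.04, BUB3.1 (AT3G19590), a spindle checkpoint protein, 2.07 ± 0.29, and AUR3 (AT2G45490), an Aurora kinase, 2.13 ± 0.15. The Aurora kinases AUR1 (AT4G32830) and AUR2 (AT2G25880) had ratios of 0.33 ± 0.35 and 0.34 ± 0.69 and did not pass (limma adjusted p = 0.097 and 0.112), but after centring on all values they were at 0.75 and 0.76 and passed (0.039 and 0.0474). SIM (AT5G04470), an inhibitor of the cyclin-dependent kinases that leads cells into endocycles, fell to -3.38 ± 0.45. The SNF2-type chromatin remodellers CHR17 (AT5G18620) and CHR24 (AT5G63950) rose by 1.76 ± 0.26 and 1.73 ± 0.32, with 3 of 5 tested CHR genes higher and 0 lower. This and the other symbol families described were picked after their values were seen.

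Several genes of RNA synthesis were higher too. Of 6 tested genes for RNA polymerase II subunits, 4 were higher and 0 lower (median 0.90), beside 39.4% and 30.6% over all genes. Among the 4 were NRPB3 (AT2G15430) at 2.17, 2.43, 1.68 and 2.06 (2.08 ± 0.31) and NRPB12 (AT5G41010) at 1.58 ± 0.43. Both genes of the nucleolus list that were tested, AT5G27120 and AT3G05060, were higher, at 2.88 ± 0.34 and 3.22 ± 0.39. Ubiquitin genes went both ways. UBC37 (AT3G24515) rose by 3.83 ± 0.71 and UBC20 (AT1G50490), a ubiquitin-conjugating enzyme tied to the cell cycle, by 2.79 ± 0.13, while UBC29 (AT2G16740) fell to -3.73 ± 0.63 and UBC32 (AT3G17000) to -1.59 ± 0.47, so that 3 of 12 tested conjugating enzymes were higher and 6 lower. Of 12 ubiquitin-specific proteases, 5 were higher, a share near the 39.4% over all genes. The highest were UBP23 (AT5G57990) at 1.75 ± 0.22 and UBP21 (AT5G46740) at 1.72 ± 0.22. The protease gene that was lower, UBP18 (AT4G31670), had -0.65 ± 0.15 (limma adjusted p = 0.0129), which rose to 0.0861 without replicate 2, 0.0683 without replicate 4 and 0.492 after centring on all values.

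Of 24 lateral root and root meristem regulators listed, 6 were tested, and 3 were higher and 2 lower, near the shares over all genes (39.4% and 30.6%). LBD16 (AT2G42430), an auxin-induced factor that starts lateral roots, had 4.05, 2.89, 3.45 and 2.70 (3.27 ± 0.61). BBM (AT5G17430), the AP2-type factor BABY BOOM of embryo and root meristem, had 4.75, 3.22, 3.92 and 2.78 (3.67 ± 0.86). Every array of both genes was above 2. AT5G48940, from the same list, stood at 4.13 ± 0.93, UPB1 (AT2G47270), a bHLH factor that limits the root meristem, fell to -3.14 ± 1.07, and JKD (AT5G03150), a zinc finger factor of root patterning, was at 0.11 ± 0.17 (limma adjusted p = 0.483). The receptor kinase gene CR4 (AT3G59420) had -0.77 ± 0.17 (limma adjusted p = 0.00733), but the call was lost without replicate 2 (adjusted p = 0.058) and after centring on all values (0.258). AT5G61890, from the list of wound and regeneration factors, rose by 2.86 ± 0.36.

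All 9 tested nuclear genes of photosynthesis and carbon fixation, of 33 listed, were lower, beside 30.6% over all genes. The median of the 9 was -3.52 against 0.12 over all genes. PSAN (AT5G64040), a subunit of photosystem I, had -4.59, -5.23, -3.75 and -4.82 (-4.60 ± 0.62, 24.2-fold lower). PRK (AT1G32060), the Calvin cycle kinase phosphoribulokinase, had -4.24, -4.69, -3.12 and -4.33 (-4.09 ± 0.68). PSAE-1 (AT4G28750), another photosystem I subunit, had -2.68, -5.36, -2.34 and -5.84 (-4.05 ± 1.80), with the Cy3 arrays lower than the Cy5 arrays by over 2 on the log2 scale.

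The autophagy genes of the ATG8 family encode ubiquitin-like proteins that coat the autophagosome. Of 14 senescence and autophagy genes listed, 8 were tested and 7 were lower, with a median of -1.59, beside 30.6% lower over all genes. ATG8H (AT3G06420) had -3.31, -4.53, -2.06 and -4.55 (-3.61 ± 1.19). APG8A (AT4G21980), also called ATG8A, had -0.39 and -0.46 on the Cy5 arrays against -5.78 and -5.36 on the Cy3 arrays, and ATG8E (AT2G45170) had -1.38 and -0.66 on the Cy5 arrays against -6.47 on replicate 4. Without the dye term neither passed, with limma adjusted p = 0.0621 and 0.112. Without replicate 4 ATG8E was at -1.02 (adjusted p = 0.0508). That fit held its Cy5 arrays alone, as replicate 2 had no measured ratio, so it could not average over the dyes. ATG8G (AT3G60640), at -0.26 ± 0.28, did not pass (adjusted p = 0.226).

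Of 28 floral organ and petal regulators listed, 5 were tested, and 2 were lower and 0 higher, beside 30.6% and 39.4% over all genes. The petal identity genes AP3, PI, SEP1, SEP2, SEP3 and AP1 were not among the genes tested. BPEp (AT1G59640), a bHLH factor that limits petal size, had -3.66, -5.07, -2.07 and -4.95 (-3.94 ± 1.40, limma adjusted p = 0.00118). PTL (AT5G03680), PETAL LOSS, a trihelix factor that shapes sepals and petals, had -0.90, -0.95, -0.89 and -1.08 (-0.95 ± 0.09, adjusted p = 0.0031), a close set of values, though after centring on all values its adjusted p was 0.12. RBE (AT5G06070), a zinc finger factor of petal growth, was near or above 0 on 3 arrays and at -4.36 on replicate 2, and neither it nor UFO (AT1G30950) nor JAG (AT1G68480) passed (adjusted p = 0.499, 0.471 and 0.141). Without replicate 4 the fitted ratios of RBE and UFO were -1.97 and -3.03, and without replicate 3 that of JAG was -1.79. These fits left RBE 1 Cy3 array, replicate 2, and left UFO and JAG 1 array of each dye. Only sizes are therefore given for them. JAG passed with the replicate number as a block over 12 arrays (-2.37, limma adjusted p = 0.00253), against -1.26 in the main fit. It had no measured ratio on petal replicate 2, so the block value leans on same-numbered arrays of other organs. Those numbers were not taken as pairing, so this call adds nothing to the main fit. AT5G44630, from the list of floral terpene synthases, fell to -1.90 ± 0.86 (adjusted p = 0.0133, and 0.0506 when limited values were kept).

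Of 22 pollen markers listed 8 were tested and 7 were lower, with a median of -3.00, beside 30.6% lower over all genes. VGD1 (AT2G47040) and VGDH1 (AT2G47030), related pectin methylesterases of the pollen tube, had fitted ratios of -3.84 ± 1.15 and -4.05 ± 1.24, and ANX1 (AT3G04690), a pollen tube receptor kinase, -3.63 ± 0.73 over 3 arrays. AT4G39110 and AT2G21480, which the list holds as pollen receptor kinases, had ratios of -3.20 and -1.97, and the MADS-box genes AGL66 (AT1G77980) and AGL104 (AT1G22130) of -2.81 and -2.66. AGL65 (AT1G18750) had -0.48 ± 0.55 and did not pass (limma adjusted p = 0.125), but it passed when all 12 arrays shared 1 fit (0.0119), with the replicate number as a block (0.00966) and without replicate 1 (-0.71, 0.0354). The array of each of the 7 lower genes that was nearest to 0 still lay below it. No gene of the tapetum and anther list could be tested. How far pollen on the explants set the ratios of other lower genes was not tested.

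**Figure D3:**
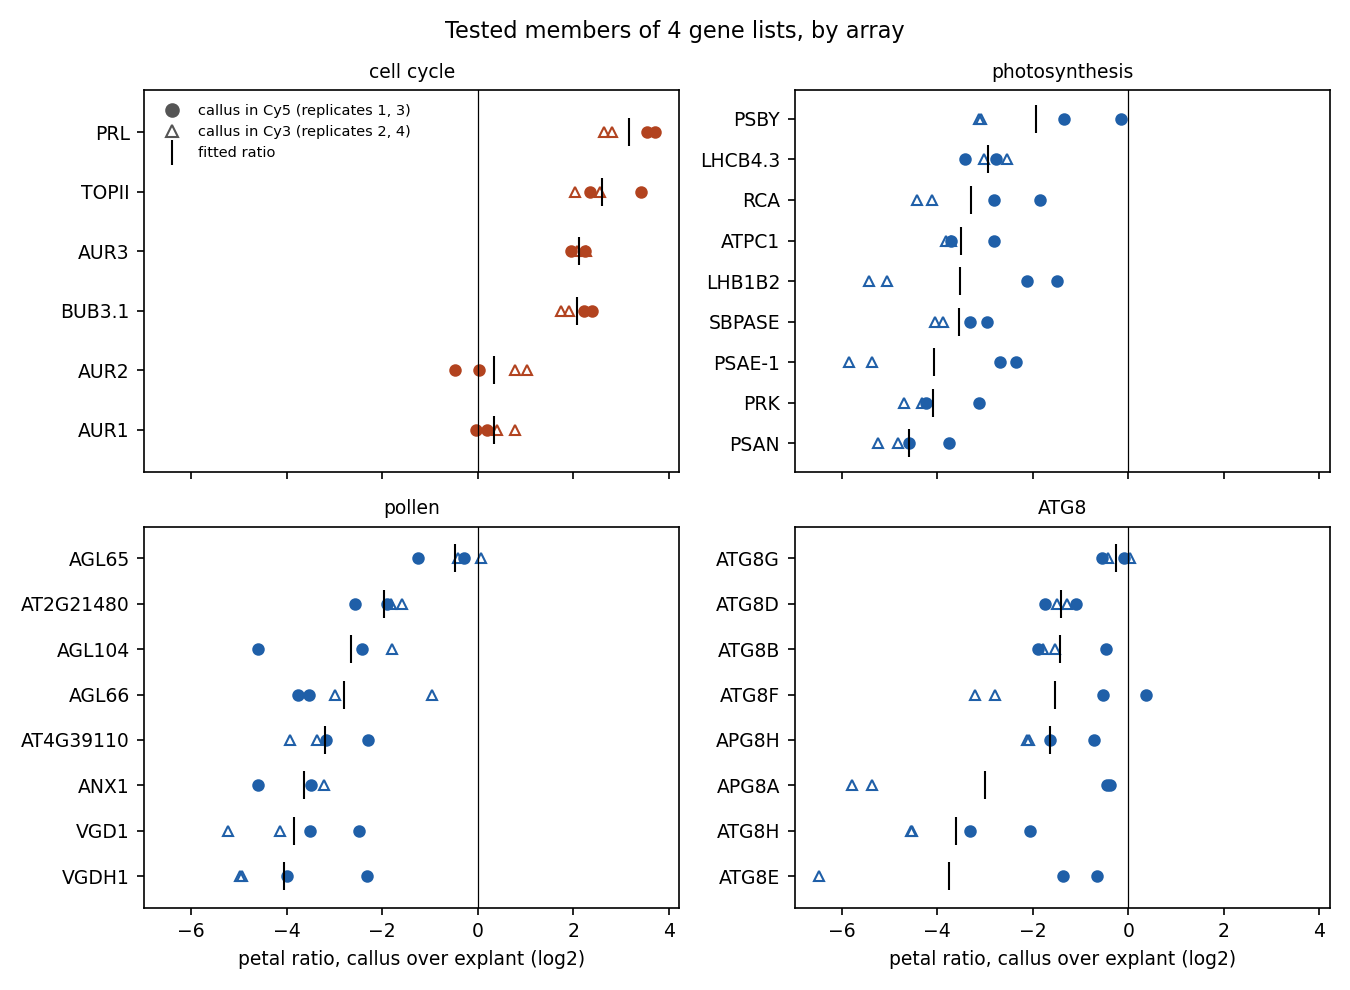
Petal ratio (log2, callus over explant) by array for the tested genes of 4 lists, with filled circles for callus in Cy5, open triangles for callus in Cy3 and a bar at the fitted ratio. Photosynthesis genes lie below 0 on every array, 4 of 6 cell cycle genes above 1.5 on every array, and APG8A, ATG8E and ATG8F are split by dye.

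Wall enzymes went both ways. XTH20 and XTH19 (AT4G30290) rose, the latter by 2.42 ± 0.66, and XTH32 (AT2G36870) by 0.68 ± 0.50, a call lost without replicate 2 (limma adjusted p = 0.0617) or 4 (0.0677). XTH29 (AT4G18990) fell to -3.80, -3.69, -3.21 and -3.35 (-3.51 ± 0.27) and XTH33 (AT1G10550) to -2.63 ± 0.76, while EXGT-A3 (AT2G01850) had -0.55 ± 0.35 (adjusted p = 0.0366), a call lost without replicate 2, 3 or 4 (0.145, 0.0625 and 0.137), after centring on all values (0.736) and with limited values kept (0.0797). XTH16 (AT3G23730) was at 0.16 ± 0.29. Of the 13 tested GH9 endoglucanase genes 4 were higher and 5 lower, beside 39.4% and 30.6% over all genes. GH9B6 (AT1G23210) had 4.01, 3.11, 3.29 and 2.80 (3.30 ± 0.52) and GH9B13 (AT4G02290) 1.99 ± 0.27, against GH9B11 above and GH9A4 (AT3G43860) at -3.43 ± 0.32 over 3 arrays. Of 6 tested subtilisin-like proteases, SBT1.3 (AT5G51750) at 2.35 ± 0.27 and SBT3.5 (AT1G32940) at 1.61 ± 0.25 led the 4 that were higher, with 0 lower.

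Of 5 tested genes of starch synthesis and breakdown, 3 were higher and 2 lower, beside 39.4% and 30.6% over all genes. APL4 (AT2G21590), a large subunit of ADP-glucose pyrophosphorylase, which makes the glucose donor for starch, had 4.11, 3.14, 3.64 and 2.79 (3.42 ± 0.58). DPE1 (AT5G64860), the plastid disproportionating enzyme, rose by 2.34 ± 0.42 and SBE2.2 (AT5G03650), a branching enzyme, by 0.87 ± 0.31. AMY1 (AT4G25000), an alpha-amylase, fell to -1.56 ± 0.34. APL3 (AT4G39210), another large subunit, had -0.62 ± 0.17 (limma adjusted p = 0.0112), a call lost without replicate 2 (0.0805) or 4 (0.0771) and after centring on all values (0.544). AT1G62660, of the list on sugar uptake and sucrose cleavage, fell to -2.34 ± 0.20.

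In phenylpropanoid and surface metabolism CCR2 (AT1G80820), a cinnamoyl-CoA reductase of the lignin pathway, rose by 1.76 ± 0.46, and HCT (AT5G48930), an acyltransferase of the same pathway, fell to -1.20 ± 0.53 (limma adjusted p = 0.00823, and 0.072 after centring on all values). The flavonol glycosyltransferase UGT78D1 (AT1G30530) had -0.98 ± 0.43 (adjusted p = 0.013), but did not pass when all 12 arrays shared 1 fit (0.223), with the replicate block (0.138) or after centring on all values (0.107). UGT78D2 (AT5G17050) had -0.32 ± 0.29 (adjusted p = 0.139). SHN2 (AT5G11190), a wax and cutin regulator, had 0.41 ± 0.18 (adjusted p = 0.0403), a call lost without replicate 2, 3 or 4 (0.213, 0.0851 and 0.169), after centring on measured ratios (0.0688) and with limited values kept (0.0737).

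Signalling and traffic families held higher and lower genes, as did all genes tested (39.4% and 30.6%). Among 22 serine carboxypeptidase-like genes 6 were higher, led by scpl50 (AT1G15000) at 1.99 ± 0.20 and scpl29 (AT4G30810) at 1.53 ± 0.27, and 8 lower. Of 9 RALF peptide genes 3 were higher and 5 lower, with RALFL34 (AT5G67070), a peptide of lateral root initiation, at 2.18, 1.81, 2.53 and 1.95 (2.11 ± 0.32), RALFL27 (AT3G29780) at 1.21 ± 0.26 and RALFL32 (AT4G14010) at -2.56 ± 0.45. Of 10 tetraspanins, membrane proteins that organise other membrane proteins, 2 were higher and 5 lower, with TET9 (AT4G30430) at 1.73 ± 0.17, TET10 (AT1G63260) at 1.15 ± 0.55 and TET3 (AT3G45600) at -2.23 ± 0.42. TET13 (AT2G03840) had -5.10, -3.12 and -0.91 on replicates 1, 3 and 4, and its call (limma adjusted p = 0.0281) was lost when limited values were kept (0.0922).

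Of 7 tested calmodulin-like genes 2 were higher and 2 lower, shares no larger than over all genes. CML43 (AT5G44460), a calmodulin-like calcium sensor, had 4.80, 3.71, 3.97 and 3.32 (3.95 ± 0.63) and CML41 (AT3G50770) 1.55 ± 0.42, while CML30 (AT2G15680) fell to -3.58 ± 0.84 and CML23 (AT1G66400) to -2.14 ± 0.29. The glutamate receptor-like channels GLR2.7 (AT2G29120) at 3.01 ± 0.48 and GLR3.6 (AT3G51480) at 1.71 ± 0.44 rose, and GLR2.2 (AT2G24720) fell to -1.12 ± 0.42. Among the NET actin-binding proteins NET1A (AT3G22790) rose by 2.77 ± 0.44 and NET4B (AT2G30500) by 1.97 ± 0.52, and NET1D (AT1G03080) and NET2D (AT2G22560) fell to -1.68 ± 0.36 and -1.37 ± 0.54. In this family 3 of 9 were higher and 3 lower, beside 39.4% and 30.6% over all genes.

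Of 9 VPS genes of endosomal sorting 5 were lower and 1 higher, beside 30.6% lower and 39.4% higher over all genes. VPS2.2 (AT5G44560) rose, with 3.12, 2.68, 2.71 and 2.52 (2.76 ± 0.26), and VPS9B (AT5G09320) and VPS37-1 (AT3G53120) fell to -1.56 ± 0.33 and -1.08 ± 0.23, the latter with an adjusted p of 0.0528 by limma after centring on all values. Of 11 SEC genes of secretion 3 were higher, among them the exocyst subunits SEC5B (AT1G21170) at 1.02 ± 0.23 and SEC15A (AT3G56640) at 0.90 ± 0.18. SEC1A (AT1G02010) had -0.91 ± 0.47 (adjusted p = 0.0233), a call lost without replicate 3 (0.0545) or 4 (0.0868), after centring on all values (0.244) and with limited values kept (0.0666). Aldehyde dehydrogenases had 3 higher and 4 lower of 8, with ALDH10A8 (AT1G74920) at 1.83 ± 0.38, ALDH22A1 (AT3G66658) at 1.53 ± 0.28, ALDH11A3 (AT2G24270) at -2.41 ± 0.46 and ALDH7B4 (AT1G54100) at -1.26 ± 1.05.

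Genes that changed in petal alone were sought in a fit of all 12 arrays, over 9694 genes. A gene counted as higher in petal alone if petal callus was above its explant by 1 or more, the petal ratio was above both the root and the cotyledon ratio, all at an adjusted p under 0.05, and neither of the other organs was called higher. By this rule 178 genes were higher (1.84%) and 280 lower (2.89%) in petal alone. Of the 178, 77 were called lower in root, 52 lower in cotyledon, 29 lower in both, and 78 were called in neither. Of the 280, the same counts with the signs turned were 77, 90, 42 and 155. Centring on all values gave 401 higher and 229 lower genes. The scatter of petal against the other organs shows where these genes lie.

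**Figure D4:**
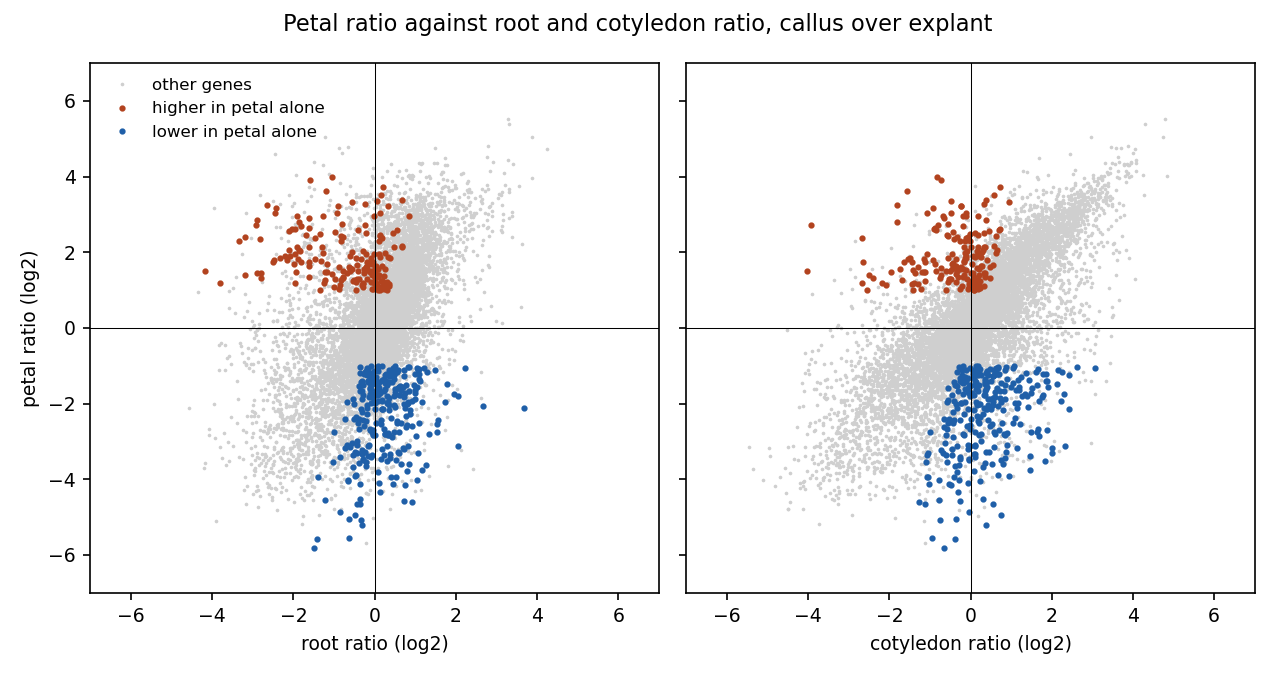
Petal ratio (log2, callus over explant) against the root ratio (left) and the cotyledon ratio (right), 1 point per gene, for genes measured in all 3 organs. The 178 genes higher in petal alone (red) lie at a petal ratio of about 1 or more and the 280 lower ones (blue) at about -1 or less, while both spread on either side of 0 in the other organs.

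Of the 178 genes higher in petal alone 27 had a symbol, and of the 280 lower ones 46. The genes named here were taken from these, so the functions given cover a small part of each class. The named higher genes included enzymes that conjugate or detoxify small molecules. UGT73B5 (AT2G15480), a stress-induced glycosyltransferase, had petal ratios of 3.70, 3.25, 3.32 and 2.86 (3.28 ± 0.34) against -0.23 in root and 0.34 in cotyledon. UGT72E1 (AT3G50740), a glycosyltransferase of lignin precursors, had 3.67, 2.96, 3.71 and 2.68 (3.26 ± 0.52) against -2.66 in root and -1.81 in cotyledon. GSTF3 (AT2G02930), a phi-class glutathione transferase, had 3.21 ± 0.40 in petal and did not pass in root (-0.91) or cotyledon (-0.24). Each of the 3 was above 2.5 on every petal array.

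BCAT4 (AT3G19710), which starts the chain elongation of methionine for glucosinolates, had 3.46, 1.71, 3.31 and 2.37 in petal (2.71 ± 0.82) and fell to -2.91 in root and -3.93 in cotyledon. OCT5 (AT1G79410), an organic cation transporter, had 2.37 ± 0.37 in petal against -1.47 and -2.67. These were the genes of the 10 named with the ratio called lower in both other organs, beside UGT72E1. IAA29 (AT4G32280), an auxin-response repressor, had 2.87, 2.74, 2.54 and 2.19 (2.58 ± 0.30), with 0.55 in root (limma adjusted p = 0.112) and -0.85 in cotyledon (0.0188). PUB22 (AT3G52450), a U-box ubiquitin ligase of stress responses, had 2.55 ± 0.70 against -2.12 in root. CHI (AT2G43570), listed as a putative chitinase, had 2.08, 2.18, 2.20 and 2.10 (2.14 ± 0.06), and MTP11 (AT2G39450), a manganese transporter, 2.04 ± 0.19. XTH19, given above, was at 0.13 in root and 0.64 in cotyledon, and it was no longer in the class after centring on all values.

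Genes lower in petal alone included transporters, wall genes and the petal regulator BPEp. SYNC3 (AT1G70980), an asparaginyl-tRNA synthetase, had -4.86, -3.81 and -5.80 on replicates 1, 3 and 4 (-5.07 ± 0.99, n = 3). It was at -0.34 in root and -0.75 in cotyledon and passed in neither, but its SDs there were wide, 2.14 and 2.30. RR16 (AT2G40670), a type-A response regulator of cytokinin signalling, also called ARR16, had -3.15, -6.57, -2.30 and -6.19 (-4.55 ± 2.14), with the Cy3 arrays far below the Cy5 arrays, and it left the class without replicate 3. In root and cotyledon RR16 was also below 0, at -1.23 and -0.77, but did not pass (limma adjusted p = 0.0757 and 0.239). EXPB5 (AT3G60570), a beta-expansin of wall loosening, had -4.50, -5.08, -2.71 and -4.14 (-4.11 ± 1.01) against 0.12 in root and -0.07 in cotyledon. BPEp, at -3.94 in petal, was at 0.40 in root and -0.41 in cotyledon, and passed in neither.

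NRAMP5 (AT4G18790), a metal transporter, had -4.05, -6.51, -2.47 and -3.00 (-4.01 ± 1.79), and PUP18 (AT1G57990), a purine permease, -4.02, -3.70, -3.40 and -4.14 (-3.82 ± 0.33). PUP18 varied little between arrays and NRAMP5 widely. SWEET14 (AT4G25010), a sugar exporter, had -3.63 ± 0.90 in petal and 1.26 in root (limma adjusted p = 0.0425), and APPB1 (AT4G24640) had -3.20 ± 1.52 in petal. PLIM2a (AT2G45800), an actin-bundling LIM protein known from pollen, had -3.53 ± 1.09 in petal. In root and cotyledon PLIM2a was also below 0, at -1.02 and -1.09, but did not pass (limma adjusted p = 0.135 and 0.103). CSLA01, at -4.65 in petal, was at -0.44 in root and 0.55 in cotyledon. It was no longer in the class without the dye term or without replicate 1, 2 or 3, and neither was PLIM2a without replicate 1 or 2. SWEET14, PLIM2a, APPB1 and CSLA01 also left the class when limited values were kept.

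**Figure D5:**
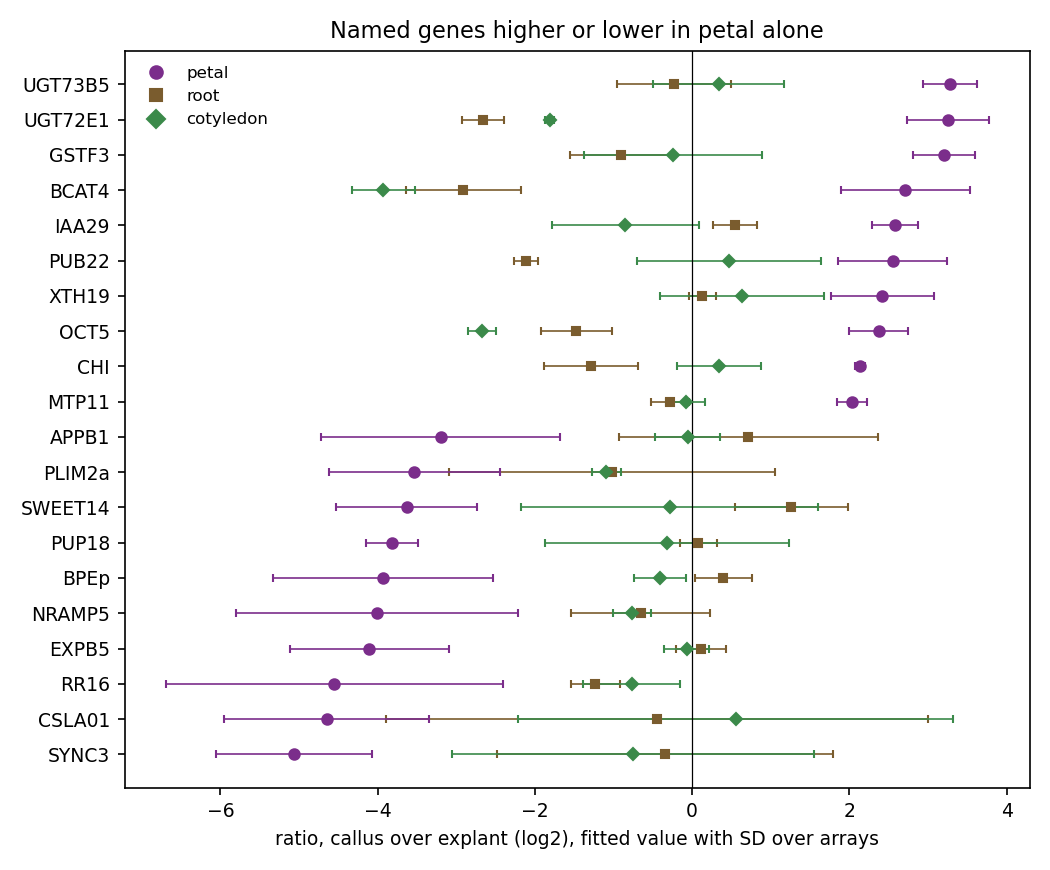
Fitted ratio (log2, callus over explant) with SD over arrays for the 20 named genes higher or lower in petal alone, in petal (purple circles), root (brown squares) and cotyledon (green diamonds). The 10 higher genes have petal ratios between 2.04 and 3.28 and the 10 lower ones between -5.07 and -3.20, while CSLA01 and SYNC3 have wide spreads in the other organs.

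A last group of 114 genes was measured in petal but had under 3 measured ratios in root and under 3 in cotyledon. Of these 88 were lower and 0 higher in petal callus (0 also at an unadjusted p under 0.05), and 73 had 3 petal arrays. A gene seen through the petal explant alone had to be lower in callus, so this count cannot be read apart from the choice. Not measured does not mean absent from root and cotyledon. On root arrays values at a limit were mostly upper with callus in Cy5 (5571 and 1834). With callus in Cy3 they were mostly lower (5357 and 1844). In cotyledon the Cy3 arrays had 4800 and 4595 at the lower limit. Its Cy5 arrays had 428 at the lower limit on replicate 1 and 1481 at the upper on replicate 3. Of the 17 with a symbol, 13 were lower. They included, beside AT59, scpl38, GH9B11 and VGD1, the sugar exporters SWEET9 (AT2G39060), the nectary sucrose exporter, with -4.95, -3.37 and -5.20 on replicates 1, 3 and 4, and SWEET7 (AT4G10850), with -4.67, -4.00 and -3.63. WSD1 (AT5G37300), a wax ester synthase of the epidermis, had -4.73, -3.70 and -5.08, and BGLU36 (AT1G51490), a beta-glucosidase-family gene, -4.50, -3.45 and -5.25. Replicate 2 was at a limit for all of these 4.

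BSMT1 (AT3G11480), which methylates salicylic and benzoic acid to volatile esters, had -4.94, -2.50 and -4.04 (-3.88 ± 1.23, n = 3, limma adjusted p = 0.016). UF3GT (AT5G54060), an anthocyanin glycosyltransferase, had -4.16, -2.17 and -4.34 (-3.75 ± 1.21), and the carboxypeptidase-like gene scpl37 (AT3G52010) -4.74, -3.34 and -4.88. On each of these replicate 3 was nearest to 0. PUB15 (AT5G42340), a U-box ligase, stood at -3.91 ± 0.47 and GLC (AT1G65450), GLAUCE, at -3.27 ± 0.86. With the replicate number as a block in a fit of all 12 arrays UF3GT and PUB15 did not pass (limma adjusted p = 0.0643 and 0.0529). Their ratios there were -1.66 and -2.48, nearer to 0 than any measured petal array of the gene. Neither gene had a measured ratio on petal replicate 2, so that fit leaned on same-numbered arrays, which were not taken as pairing. At the far end, 55 genes were at the lower limit on all 4 petal arrays and so had no measured ratio, and 0 were at the upper limit on all 4.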

How the data were processed

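The authors deposited log2 ratios of 2-colour oligonucleotide arrays, with 24938 of 26540 probes holding a value. The sources used here do not give how they were background-corrected, normalized and centred. Scanner signals were not analysed here. RNA was amplified with T7 polymerase before dye coupling, per the labels' protocols. Values at the limit of 6.644 (100-fold, tolerance 1e-04) were treated as missing. Probes with 1 gene on the platform's probe table (13960) were averaged per gene. Of these, 13912 matched the RefSeq TAIR10.1 gene table, which gave symbols for 1246 of the genes tested. No coordinates or sequences are given.

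Petal ratios were tested against 0 in R 4.3.3 by the moderated 2-sided test of limma 3.58.1, with a dye term, over genes with 3 or more measured petal ratios. P-values were adjusted by Benjamini-Hochberg at 0.05. Values are fitted ratios with the SD across measured arrays, so with 3 arrays the fitted ratio can differ from the plain mean. The fit was tested on simulated ratios, but the settings and outcome are not given here, and no result above rests on them. The number of arrays limits the precision.

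Named genes were first the 8 highest and 8 lowest called in petal with the same sign on all 4 arrays. To these came the 10 highest and lowest of petal alone and the 8 highest and lowest of those not measured elsewhere. All of these had a symbol. The 3 highest and lowest of each of 19 gene lists were named too, with or without a symbol. Members, lists and rules were chosen with earlier results of these data known. Genes were also grouped into 39 families of 5 or more by the stem of their symbol, a rule made after the files were seen. The 15 families described, with their 2 highest and 2 lowest genes, were picked after the values of all 39 had been seen, so their counts describe them and support nothing.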

Additional observations from a re-analysis of the deposited data

Results flagged for a closer look

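RBE, a petal growth gene, had 1 array far from the other 3, replicate 2 at -4.36. Its gap to the nearest other array passed Dixon's critical value for 4 samples, which chance alone passes in about 1 in 20 groups, and this was 1 flag among 121 named genes measured on 4 arrays.

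Differences between petal and another organ are listed for 41 named genes, from the fit of all 12 arrays (limma adjusted p from 3.26e-07 to 0.0309). The 41 are the genes named for petal alone, and genes called in petal and the opposite way in another organ. Other named genes also passed the test of the difference, such as BUBR1 (petal minus root 3.26, limma adjusted p = 3.85e-06) and EXO (2.74, 0.000602). Each of the 41 has 1 difference, for genes named as the highest or lowest of petal alone the smaller of the 2 in size. XTH33, CML23 and NET2D, also lower in petal alone, are listed for their opposite call, with the larger difference. The 2 ratios lay on opposite sides of 0 for 26 of the 41 and on the same side for 15. Many were named because they differ between organs, so their number describes the choice. Petal lay above root, as a difference of log2 ratios, for JAL22 by 7.04, BCAT4 by 5.63, JAL31 by 5.19, VPS2.2 by 4.30, RALFL27 by 3.99, OCT5 by 3.85, CCR2 by 2.77, IAA29 by 2.04 and XTH32 by 1.67. Petal minus root was -4.21 for CSLA01, -3.40 for XTH33, -3.32 for RR16, -2.60 for APL3, -2.34 for CR4, -2.24 for VPS9B, -1.85 for PTL, -1.69 for HCT and -1.47 for SEC1A.

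Petal lay above cotyledon for UGT72E1 by 5.07, GLR2.7 by 4.35, CML41 by 3.97, GSTF3 by 3.45, UGT73B5 by 2.94, MTP11 by 2.12, PUB22 by 2.09, SBE2.2 by 1.84, CHI by 1.79, XTH19 by 1.78 and TET10 by 1.61. Petal minus cotyledon was -5.18 for UPB1, -4.57 for SYNC3, -4.56 for CML23, -4.03 for EXPB5, -3.53 for BPEp, -3.49 for PUP18, -3.34 for SWEET14, -3.24 for NRAMP5, -3.14 for APPB1, -3.04 for AMY1, -2.54 for NET2D and -2.44 for PLIM2a.

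Probes without a gene name, which the gene counts leave out, also carried signal. Of 8643 such probes tested on the petal arrays, 3127 were higher and 2785 lower in callus.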

How the results depend on the processing

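With another dye or array term, centring, filter or probe choice, or with limited values kept, the petal counts stayed within 1.5 times of 3983 higher and 3098 lower genes. Leaving out each replicate gave 3263 to 3998 higher and 2492 to 3298 lower genes in petal, and 160 to 180 higher and 262 to 319 lower in petal alone. Centring on the median of all values gave 401 genes higher in petal alone, and 174 of the 178 were among them. An alternative chosen after seeing the data tested all 18954 probes, with or without a gene name, and gave 7169 higher and 5931 lower, more because more features were tested. The replicate block, with the replicate number in place of the dye term over 12 arrays, gave 4378 higher and 3510 lower genes in petal and 178 higher and 288 lower in petal alone. Deviations of same-numbered petal and other arrays correlated above 0.1 in 7 of 8 pairs but at -0.02 for replicate 1 with root, and the best match was the own number in 5 of 8, a hint from the data and not the design. Since not every pair was above 0.1, the numbers were not taken as pairing. Of the 137 named genes, calls lost or gained by an alternative are given beside the gene, and their cause was not tested. For RBE, UFO and JAG with 1 replicate left out, sizes alone are given. Ratios at a limit took up to 28.2% of an array, and 3391 genes had too few measured petal ratios to test.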
